A study of Mus musculus with 8 samples.

Results

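The xenobiotic cytochrome P450 families 1 to 4 were described in single liver cells of 8 mice, as all genes of the matrix whose symbol is Cyp, a family number from 1 to 4, 1 letter and a number. The rule found 75 of 55450 genes, with 3 members in family 1, 48 in family 2, 7 in family 3 and 17 in family 4. The 8 wild-type C57BL/6 mice comprised 2 control mice, which ate a normal diet and drank water, and 6 mice that drank fructose solution, received CCl4 by intraperitoneal injection and ate either a high-fat diet (HFD+F+CCl4, 3 mice) or a western diet (WD+F+CCl4, 3 mice), for 16 weeks in all groups. The 6 treated mice are called NASH mice here. Every NASH mouse received the diet, the fructose and CCl4 together, so the effects of these agents cannot be told apart. Each mouse gave 1 droplet library, made after enzymatic dissociation of the liver and removal of red and dead cells. Each captured mRNA molecule carried a unique molecular identifier (UMI), and a level is given in CPM, the UMIs of a gene per 1000000 UMIs of the same barcodes in the same mouse.

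P450 enzymes are haem proteins of the endoplasmic reticulum that insert an oxygen atom into their substrates, with electrons passed on by the reductase Por. Families 1, 2 and 3 oxidise drugs, carcinogens, steroids and solvents, mainly in hepatocytes, whereas family 4 mainly hydroxylates fatty acids and eicosanoids. In the liver lobule many of them are pericentral, and Cyp2e1, which activates CCl4 to the trichloromethyl radical, is the best known of these.

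Only barcodes above 500 genes and below 25% of mitochondrial UMIs were used, which left 4168 to 11999 barcodes and 5305581 to 63878061 UMIs per mouse. Control replicate 2 was the shallowest library, with a median of 992.5 UMIs per kept barcode against 2397 in control replicate 1 and 3159 to 4278 in the NASH mice. Of the 79739 different barcode sequences kept, 732 occurred in more than 1 library, at most 46 in a pair. Hepatocytes were taken in 2 ways, as barcodes with Alb at 1% or more of their UMIs (Alb-rich) and as a hepatocyte-like cluster found without P450 genes.

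The members together held 142461 of 367985441 UMIs, or 0.0387%. No UMI was counted for 11 members, 1 to 19 UMIs for 16, from 20 up to but below 1000 for 28 and 1000 or more for 20. Family 4 held 72.8% of the member UMIs, family 2 held 19.9%, family 3 held 5.43% and family 1 held 1.90%. Cyp4f18, a hydroxylase of leukotriene B4 and other fatty acids, alone held 53977 UMIs, or 37.9%. Cyp4f16 followed with 19088 UMIs, the fatty acid hydroxylase Cyp4v3 with 10600, Cyp4b1 with 10386, Cyp4f13 with 6559, Cyp3a11 with 5789 and Cyp2e1 with 5122. Monocyte/macrophage-like barcodes gave 46.8% of the member UMIs, from 34533 of the 80474 kept barcodes. Endothelial-like barcodes gave 9.25% from 3756 barcodes, and Alb-rich barcodes gave 7.15% from only 641. These shares depend on how many barcodes of each class were captured. Most P450 RNA in these suspensions was therefore counted outside hepatocytes. Near-identical copies in the Cyp2c, Cyp2d, Cyp2j, Cyp3a, Cyp4a and Cyp4f subfamilies could share reads, so the split of counts within those subfamilies is uncertain.

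**Figure D1:**
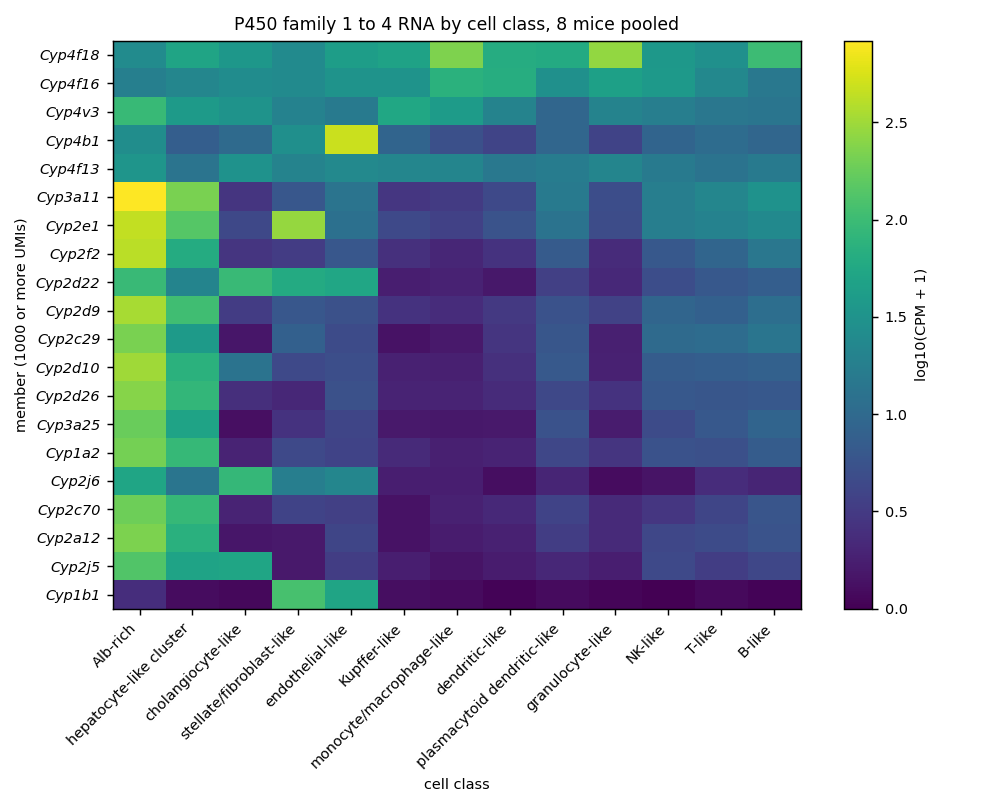
Level of each member with 1000 or more UMIs in 13 cell classes, as log10 of CPM plus 1 with the UMIs of 8 mice pooled (colour scale at right; members on the vertical axis, classes on the horizontal axis). Cyp3a11, Cyp2e1 and Cyp2f2 are brightest in Alb-rich barcodes, Cyp4b1 in endothelial-like barcodes, Cyp1b1 in stellate/fibroblast-like barcodes and Cyp4f18 in granulocyte-like and monocyte/macrophage-like barcodes.

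Promoters of 4 genes are printed, 1 or 2 from each place where members were counted: the hepatocyte gene Cyp3a25, chosen because it holds the motif shown, the myeloid genes Cyp4f18 and Cyp4f16, and the endothelial and stellate gene Cyp1b1. Each is the 250 bases before the gene's RefSeq start on GRCm38.p6, read 5′ to 3′ along the gene. Capitals mark TTGCNNAA, the C/EBP motif, in Cyp3a25 and GAGGAA or its other strand TTCCTC, the PU.1 motif, in the Cyp4f genes. In Cyp1b1 they mark GCGTG or its other strand CACGC, the AhR-Arnt motif. Left unmarked are 1 PU.1 match in Cyp1b1 and 1 AhR-Arnt match in Cyp4f16, so neither motif is confined to the genes where it is marked.
Cyp3a25, chr5:146009619-146009868, minus strand: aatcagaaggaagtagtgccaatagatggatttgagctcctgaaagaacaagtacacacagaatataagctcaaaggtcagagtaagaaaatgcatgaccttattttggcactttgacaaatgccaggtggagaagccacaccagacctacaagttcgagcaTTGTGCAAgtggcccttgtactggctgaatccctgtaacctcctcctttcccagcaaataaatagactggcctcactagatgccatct
Cyp4f18, chr8:72009627-72009876, minus strand: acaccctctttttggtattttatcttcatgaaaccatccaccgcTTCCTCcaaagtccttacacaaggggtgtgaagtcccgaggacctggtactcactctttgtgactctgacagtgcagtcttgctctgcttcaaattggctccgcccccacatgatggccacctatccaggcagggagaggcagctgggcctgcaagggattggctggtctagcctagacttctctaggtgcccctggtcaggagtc
Cyp4f16, chr17:32536307-32536556, plus strand: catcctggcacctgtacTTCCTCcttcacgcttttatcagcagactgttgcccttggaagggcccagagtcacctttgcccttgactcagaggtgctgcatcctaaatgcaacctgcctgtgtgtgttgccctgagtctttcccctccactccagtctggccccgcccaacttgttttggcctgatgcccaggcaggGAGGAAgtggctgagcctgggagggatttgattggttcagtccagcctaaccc
Cyp1b1, chr17:79715062-79715311, minus strand: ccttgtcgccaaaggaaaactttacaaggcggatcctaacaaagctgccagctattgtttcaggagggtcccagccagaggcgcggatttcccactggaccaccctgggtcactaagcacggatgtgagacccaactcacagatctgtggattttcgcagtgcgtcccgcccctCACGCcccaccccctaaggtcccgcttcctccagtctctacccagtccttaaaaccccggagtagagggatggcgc
RefSeq promoters were matched for 62 of the 75 members. On both strands, the C/EBP motif stood in 14 of the 62 (22.6%) against 9.56% of 32851 promoters of all genes, HNF1 (GTTAAT) in 8 (12.9%) against 6.43%, PU.1 in 10 (16.1%) against 23.3%, and AhR-Arnt in 12 (19.4%) against 28.2%. Cyp3a11, Cyp2e1, Cyp2f2, Cyp1a2 and Cyp2c29 held neither the C/EBP nor the HNF1 motif in this window, so Cyp3a25 is not typical of the abundant hepatocyte members. A match is a run of letters and not a measured binding site. Members of a subfamily lie side by side and share sequence, so these 62 windows are not independent.

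The hepatocyte sample itself differed between the groups. Alb-rich barcodes made up 4.28% and 1.18% of the kept barcodes of the control mice, 0.429%, 0.296% and 0.0469% of the HFD+F+CCl4 mice and 0.00833%, 0.0508% and 0.350% of the WD+F+CCl4 mice. The control mice averaged 2.73% ± 2.20 (SD, n = 2) and the NASH mice 0.197% ± 0.183 (SD, n = 6), without overlap, and an exact two-sided permutation test gave p = 0.0357, the smallest that 28 splits can give. By the hepatocyte-like cluster the order turned, with 0.224% ± 0.181 in control mice and 1.35% ± 0.865 in NASH mice (exact permutation p = 0.143). The rule on Alb and the cluster thus picked different barcodes. Of the 511 control Alb-rich barcodes, 332 lay in 1 unnamed cluster and 25 in the hepatocyte-like cluster. Of the 130 NASH Alb-rich barcodes, 78 were hepatocyte-like. The unnamed cluster held 1840 and 19 control barcodes. Its best marker list, at a mean z-score of 1.832, led the B list, at 1.739, by less than the required 0.2. At a higher clustering resolution a cluster of 1860 barcodes with the same leading genes was named hepatocyte. The cluster share of the control mice thus depends on this naming.

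Ptprc, the pan-leukocyte gene, had a UMI in 73.0% of control and 21.5% of NASH Alb-rich barcodes. The list of 8 hepatocyte markers ran from 25317 to 39755 CPM in control and from 39875 to 77334 CPM in NASH Alb-rich barcodes, with all but Afp counted in every mouse. The list of 7 T cell markers was at 1511 and 1289 CPM in control mice, all 7 counted, against 0 to 71.9 CPM in NASH mice, where 3 mice held none of them. The list of 9 endothelial markers was at 733 and 1271 CPM, all 9 counted, against 0 to 241 CPM, where WD+F+CCl4 replicate 1 held none. The list of 11 monocyte and macrophage markers overlapped, at 3016 and 2052 CPM against 0 to 2080 CPM, and 78.5% of control but 93.1% of NASH Alb-rich barcodes had a UMI of it. The Alb-rich barcodes of the control mice thus carried more T cell and endothelial RNA, and its part in the differences below was not tested. Because the NASH mice gave few Alb-rich barcodes, values below rest on 462 and 49 barcodes in the control mice, 48, 30 and 5 under HFD+F+CCl4 and 1, 5 and 41 under WD+F+CCl4. A single UMI in WD+F+CCl4 replicate 1 is 782 CPM, so a 0 there says little.

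Cyp3a11 and Cyp2e1 were the most abundant members of the Alb-rich barcodes, and neither passed the test between control and NASH mice at that Alb threshold. Cyp3a11, the main steroid and drug oxidase of mouse liver, was at 1067 and 581 CPM in the control mice, 70.8, 1272 and 8.56 CPM under HFD+F+CCl4 and 0, 778 and 432 CPM under WD+F+CCl4. HFD+F+CCl4 replicate 2 lay above both control mice and the groups overlapped. Cyp2e1 was at 548 and 599 CPM in the control mice, 137, 706 and 137 CPM under HFD+F+CCl4 and 0, 38.9 and 165 CPM under WD+F+CCl4. The control mice lay above the 3 WD+F+CCl4 mice and above 2 of the 3 HFD+F+CCl4 mice. In edgeR's quasi-likelihood test with Benjamini-Hochberg adjustment over all genes, Cyp2e1 changed by -0.37 in HFD+F+CCl4 mice (adjusted p = 0.812) and -1.68 in the single WD+F+CCl4 mouse that entered the fit (adjusted p = 0.321), on the log2 scale. With Alb at 0.5% or more, where all 8 mice entered, Cyp2e1 fell by 1.96 in WD+F+CCl4 mice (adjusted p = 0.0480, edgeR), where 28.1% of genes passed, and changed by -1.24 in HFD+F+CCl4 mice (adjusted p = 0.168). With Alb at 1% or more, Cyp3a11 changed by -0.30 in HFD+F+CCl4 mice (adjusted p = 0.879, edgeR) and by -0.94 in the single WD+F+CCl4 mouse. With Alb at 0.5% or more it changed by -1.16 and -0.99 (adjusted p = 0.382 and 0.463, edgeR).

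Cyp2f2 and Cyp2c54 fell in both models. Cyp2f2, the periportal and airway enzyme that activates naphthalene, was at 711 and 309 CPM in the control mice, 118, 98.7 and 77.1 CPM under HFD+F+CCl4 and 0, 0 and 7.19 CPM under WD+F+CCl4. All 6 NASH mice lay below both control mice. On the log2 scale Cyp2f2 fell by 2.43 (SE 0.67, adjusted p = 0.0185) in HFD+F+CCl4 mice and by 6.14 (SE 1.21, adjusted p = 0.00238) in WD+F+CCl4 replicate 3, by edgeR's quasi-likelihood test. Cyp2c54, an arachidonic acid epoxygenase, was at 60.1 and 127 CPM in the control mice, 0, 14.6 and 0 CPM under HFD+F+CCl4 and 0, 19.5 and 3.60 CPM under WD+F+CCl4. The groups did not overlap, on 80 UMIs in all, and it fell by 3.28 (SE 0.89, adjusted p = 0.0164) and fell by 4.28 (SE 1.31, adjusted p = 0.0410) in the same edgeR fit. WD+F+CCl4 replicate 3 held 2 UMIs of Cyp2f2 and 1 of Cyp2c54, which is a ratio to the pooled control mice of 0.0104 (95% exact interval 0.00126 to 0.0377) for Cyp2f2 and 0.0568 (0.00142 to 0.327) for Cyp2c54, counting error only.

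**Figure D2:**
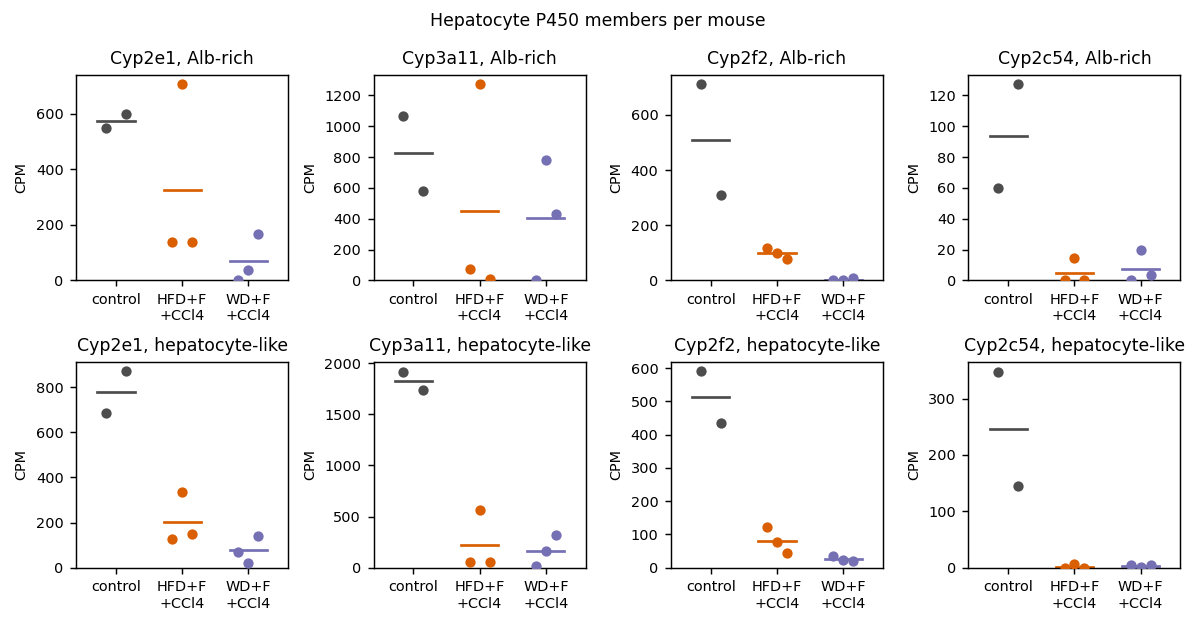
Level in CPM (vertical axis, linear from 0) of Cyp2e1, Cyp3a11, Cyp2f2 and Cyp2c54 by group (horizontal axis) in Alb-rich barcodes (top) and in the hepatocyte-like cluster (bottom). Points are mice and lines are group means. Cyp2f2 and Cyp2c54 are lower in all 6 NASH mice than in both control mice in both rows, while Cyp2e1 and Cyp3a11 overlap between groups in the Alb-rich barcodes and do not in the cluster. In the cluster control replicate 2 rests on 4 barcodes.

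The third member that fell in HFD+F+CCl4 mice was Cyp4b1, an enzyme of lung and endothelium, by 3.22 (SE 0.94, adjusted p = 0.0252, edgeR). It was at 26.0 and 291 CPM in the control mice and 0 to 18.9 CPM in the NASH mice. Its fall moved with the endothelial marker list given above, and in the hepatocyte-like cluster its change was 0.57 (adjusted p = 0.950, edgeR). Of 75 members, 29 passed the filter on low counts in the Alb-rich barcodes. In HFD+F+CCl4 against control 3 of the 29 passed the test and all 3 were lower, where 9.87% of 7418 genes passed it and 6.01% were lower and 3.86% higher. In WD+F+CCl4 against control 2 of 29 passed, both lower, where 7.51% of all genes passed and 4.92% were lower and 2.59% higher. These shares of members were near those of all genes. The median member change was 0.01 in HFD+F+CCl4 against 0.01 over all genes, and -0.94 in WD+F+CCl4 against -0.07. Between the models 0 of 29 passed (background 0.0135%), with 4 at an unadjusted p under 0.05 and 0 by DESeq2. The fit held control replicates 1 and 2, HFD+F+CCl4 replicates 1 and 2 and WD+F+CCl4 replicate 3, which was taken to vary like the other mice. The Cyp2f2 call was lost in HFD+F+CCl4 without control replicate 1 (adjusted p = 0.634), HFD+F+CCl4 replicate 1 (0.0789) or HFD+F+CCl4 replicate 2 (0.276), and in WD+F+CCl4 without HFD+F+CCl4 replicate 2 (0.0660), by edgeR.

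The other abundant Alb-rich members varied from mouse to mouse. Among the Cyp2c epoxygenases and steroid hydroxylases, Cyp2c29 was at 306 and 309 CPM in the control mice, 4.72, 263 and 0 CPM under HFD+F+CCl4 and 0, 0 and 54.0 CPM under WD+F+CCl4. Cyp2c67 was at 174 and 127 CPM, then 18.9, 80.4 and 8.56 CPM, then 0, 58.4 and 32.4 CPM in the same order of groups. Both control mice lay above every NASH mouse for these 2 genes, and neither passed the test. Cyp2c50 was at 89.8 and 291 CPM in control, 4.72, 73.1 and 34.3 CPM in HFD+F+CCl4 and 0, 58.4 and 28.8 CPM in WD+F+CCl4 mice. Its groups did not overlap either. Cyp2c70, which hydroxylates bile acids into muricholic acids, was at 144 and 109 CPM, then 94.4, 387 and 231 CPM, then 0, 253 and 223 CPM, so that 4 NASH mice lay above the control mice. Cyp2c23 was at 61.0 and 36.3 CPM, then 37.7, 172 and 51.4 CPM, then 0, 58.4 and 18.0 CPM, and its groups overlapped.

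In the Cyp2d subfamily, relatives of the human debrisoquine hydroxylase, no NASH mouse except HFD+F+CCl4 replicate 2 exceeded control replicate 1 for Cyp2d9. Its levels were 392 and 72.6 CPM in control, 175, 567 and 274 CPM in HFD+F+CCl4 and 0, 214 and 133 CPM in WD+F+CCl4 mice. Cyp2d10 stood at 415 and 109 CPM, then 156, 300 and 188 CPM, then 0, 195 and 176 CPM. Cyp2d26 stood at 271 and 109 CPM, then 146, 351 and 283 CPM, then 782, 175 and 133 CPM, the 782 being a single UMI. The groups overlapped for all 3. Cyp2d22 was at 77.2 and 90.8 CPM, then 132, 128 and 128 CPM, then 0, 38.9 and 104 CPM, and its HFD+F+CCl4 mice lay above both control mice. Cyp2a12, a steroid hydroxylase, was at 268 and 90.8 CPM, then 123, 292 and 128 CPM, then 0, 136 and 115 CPM.

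Of the family 1 enzymes, which the Ah receptor induces, Cyp1a2 was the only one abundant in Alb-rich barcodes. Cyp1a2 was at 217 and 90.8 CPM in control, 94.4, 311 and 120 CPM in HFD+F+CCl4 and 0, 487 and 144 CPM in WD+F+CCl4 mice, with overlap. The test gave 0.19 and -0.25 on the log2 scale. Cyp3a25, the gene whose promoter is printed above, was at 235 and 400 CPM, then 66.0, 154 and 25.7 CPM, then 0, 77.8 and 79.1 CPM, with both control mice above every NASH mouse. Cyp2j5, an epoxygenase, was at 118 and 54.5 CPM, then 89.6, 157 and 120 CPM, then 0, 214 and 216 CPM. It overlapped between the groups.

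Among the fatty acid hydroxylases of family 4, the PPARα-induced Cyp4a14 and Cyp4a10 varied widely within the HFD+F+CCl4 group, and their groups overlapped. Cyp4a14 was at 70.9 and 200 CPM in control, 9.44, 369 and 0 CPM in HFD+F+CCl4 and 0, 0 and 3.60 CPM in WD+F+CCl4 mice. Cyp4a10 was at 46.7 and 218 CPM, then 37.7, 292 and 34.3 CPM, then 0, 195 and 25.2 CPM. For both, HFD+F+CCl4 replicate 2 was the highest mouse. Cyp4f14 was at 73.6 and 36.3 CPM, then 99.1, 117 and 111 CPM, then 0, 19.5 and 54.0 CPM, its HFD+F+CCl4 mice above both control mice. Cyp4v3 was at 104 and 72.6 CPM, then 47.2, 106 and 85.6 CPM, then 782, 38.9 and 75.5 CPM, with overlap and again a single UMI behind the 782.

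The hepatocyte-like cluster, which leaves out the unnamed cluster of Alb-rich control barcodes, gave another picture of the same genes. It held 38 and 4 barcodes of the control mice, 112, 160 and 31 of the HFD+F+CCl4 mice and 338, 155 and 100 of the WD+F+CCl4 mice, and control replicate 2 was too small to enter a fit. The 75 members together stood at 10225 and 6090 CPM in the control mice, 1535, 3232 and 1524 CPM under HFD+F+CCl4 and 498, 818 and 1887 CPM under WD+F+CCl4. Both control mice lay above every NASH mouse. Cyp3a11 was at 1919 and 1740 CPM, then 51.9, 566 and 52.5 CPM, then 18.9, 159 and 320 CPM. Cyp2e1 was at 685 and 870 CPM, then 128, 336 and 148 CPM, then 70.7, 20.1 and 142 CPM. Neither gene overlapped between control and NASH mice in this cluster. Cyp1a2 was at 1149 and 290 CPM, then 70.2, 144 and 105 CPM, then 16.5, 60.4 and 108 CPM, also without overlap. Control replicate 2 held only 6896 UMIs in this cluster, so its values rest on few UMIs of each member.

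In the fit on this cluster control replicate 1 was the only control mouse, so the spread among control mice was not measured and it was taken to vary like the NASH mice. Against that mouse Cyp2f2 and Cyp2c54, 2 of 33 members, were called lower in HFD+F+CCl4 mice, where 0.369% of 8125 genes passed and 0.32% were lower. In WD+F+CCl4 mice 9 of 33 were lower, where 1.46% of genes passed and 1.11% were lower. They were Cyp2f2 (-4.27), Cyp2c54 (-6.34), Cyp2c67 (-4.57), Cyp2c50 (-4.22), Cyp2c37 (-5.87), Cyp2a5 (-5.95), Cyp2d9 (-3.51), Cyp3a25 (-3.96) and Cyp1a2 (-4.19), in log2 units. Cyp2e1 was at -3.03 with adjusted p = 0.0743 by edgeR. In this cluster the hepatocyte marker list was at 45011 and 23637 CPM in the control mice and 6512 to 43189 CPM in the NASH mice, and a list of 7 granulocyte markers at 4122 and 580 CPM against 66.9 to 6963 CPM, with 4 to 7 of the 7 counted. WD+F+CCl4 replicate 1 was lowest for the hepatocyte list and highest for the granulocyte list, and their part in these values was not tested.

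Members were also set against other hepatocyte RNA of the same barcodes. Per 1000 UMIs of 18 secreted hepatocyte genes (Alb, apolipoproteins, fibrinogens and others), Alb-rich barcodes held 84.8 and 121 member UMIs in the control mice, 32.8, 52.0 and 22.6 under HFD+F+CCl4 and 9.95, 32.2 and 23.5 under WD+F+CCl4. The hepatocyte-like cluster held 136 and 161, then 30.7, 50.2 and 19.4, then 23.5, 27.1 and 23.7. Both control mice lay above all 6 NASH mice by either definition. Cyp2e1 alone was at 7.95 and 15.0 per 1000 secreted UMIs in the control Alb-rich barcodes, 2.20, 5.50 and 1.31 under HFD+F+CCl4 and 0, 0.381 and 1.53 under WD+F+CCl4. In the hepatocyte-like cluster Cyp2e1 was at 9.12 and 23.0, then 2.56, 5.22 and 1.89, then 3.34, 0.667 and 1.78. These ratios are descriptions and carry no test, and control replicate 2 rests on 4 barcodes in the cluster. The sum over all members also counts P450 RNA of other cell types in the barcodes, such as Cyp4f18. The 18 genes likewise include Hp, which was also a leading gene of a monocyte/macrophage-like cluster.

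**Figure D3:**
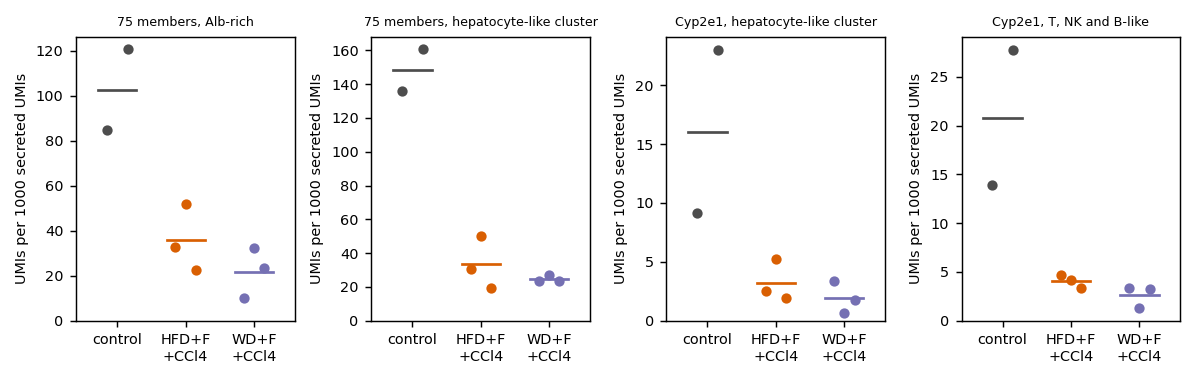
UMIs per 1000 UMIs of 18 secreted hepatocyte genes (vertical axes, linear from 0) by group (horizontal axes), for all 75 members in Alb-rich barcodes and in the hepatocyte-like cluster, and for Cyp2e1 in the hepatocyte-like cluster and in T-, NK- and B-like barcodes. Points are mice and lines are group means; in each panel both control mice lie above the 6 NASH mice. In the hepatocyte-like cluster control replicate 2 rests on 4 barcodes.

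Members were also split by zone, with each barcode put in the list, pericentral or periportal, that held the larger share of its UMIs. No P450 gene is in those lists. In the hepatocyte-like cluster Cyp2e1 and Cyp3a11 were higher in pericentral than in periportal barcodes in 6 of 6 mice, and Cyp2f2 was higher in periportal barcodes in 6 of 6. Mice entered with 5 or more barcodes on each side, and the pericentral side of these 6 held only 5 to 14. In Alb-rich barcodes of 4 mice Cyp1a2 and Cyp2c67 were higher on the pericentral side in 4 of 4, Cyp2c70, Cyp2d26, Cyp2j5 and Cyp3a25 on the periportal side in 4 of 4, Cyp2e1 on the pericentral side in 3 of 4 and Cyp2f2 on the periportal side in 3 of 4.

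The rest of the drug-metabolism pathway in Alb-rich barcodes moved in both directions. Of 36 listed enzymes of conjugation and hydrolysis 32 were tested, and 8 rose and 4 fell in HFD+F+CCl4 against control, with 5 and 6 in WD+F+CCl4. Over all genes 3.86% were higher and 6.01% lower in HFD+F+CCl4, and 2.59% and 4.92% in WD+F+CCl4. The glutathione S-transferases Gsta1 (log2 change 4.98 in HFD+F+CCl4 and 5.22 in WD+F+CCl4) and Gstm2 (3.36 and 3.05) and the alcohol dehydrogenase Adh1 (3.52 and 3.68) rose in both. The carboxylesterases Ces1f (-2.08 and -5.60) and Ces3b (-3.85 and -5.63), the glucuronosyltransferase Ugt2b1 (-2.82 and -2.97) and the sulfotransferase Sult2a8 (-3.26 and -3.64) fell in both. None of the 5 electron donors passed the test, with Por at 1.89 (adjusted p = 0.0526, edgeR) and -0.04. Of 9 receptors and regulators 1 rose in HFD+F+CCl4, Hnf4a by 2.22, and none passed in WD+F+CCl4. Outside families 1 to 4, Cyp7a1, the rate-limiting enzyme of bile acid synthesis, rose by 4.69 in HFD+F+CCl4, and the sterol 12-alpha-hydroxylase Cyp8b1 changed by -4.62 and -8.24, called in both. Between the models 0 of the 32 conjugation and hydrolysis enzymes passed.

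In the monocyte, macrophage and dendritic cell (MMD) clusters, which include Kupffer-like and plasmacytoid dendritic-like barcodes, 3 family 4 members rose in both models. Cyp4f18 (chr8:71988482-72009626, minus strand, GRCm38) was at 48.0 and 49.7 CPM in the control mice, 221, 142 and 162 CPM under HFD+F+CCl4 and 209, 241 and 170 CPM under WD+F+CCl4. Every NASH mouse lay far above both control mice, and Cyp4f18 rose by 2.00 (SE 0.23, adjusted p = 0.00132) and 2.29 (SE 0.23, adjusted p = 0.00089) on the log2 scale by edgeR's quasi-likelihood test. Cyp4f16 was at 27.8 and 34.5 CPM, then 65.5, 56.8 and 85.7 CPM, then 66.6, 79.8 and 58.1 CPM, again without overlap. It rose by 1.36 (SE 0.25, adjusted p = 0.00857) and 1.37 (SE 0.25, adjusted p = 0.00683, edgeR). Cyp4v3 was at 17.0 and 18.3 CPM, then 45.3, 35.1 and 34.8 CPM, then 33.5, 32.6 and 34.8 CPM. All NASH mice were again higher, by 1.28 (SE 0.15, adjusted p = 0.00137) and 1.14 (SE 0.15, adjusted p = 0.00196, edgeR). Cyp4f13 was at 15.8 and 14.2 CPM, then 27.7, 17.9 and 19.4 CPM, then 17.6, 16.4 and 17.2 CPM, and did not pass.

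The MMD clusters were not the same mixture in all mice. The cluster led by Cd300e, Ear2, Nr4a1 and Ace held 38 and 15 barcodes of the control mice against 1214 to 3206 per NASH mouse, and the cluster led by C1q genes, Trem2 and Gpnmb held 16 and 4 against 1090 to 3085. Within cluster 0, a monocyte/macrophage-like cluster with 410 and 183 control barcodes, Cyp4f18 was at 91.2 and 93.9 CPM in control, 332, 254 and 194 CPM in HFD+F+CCl4 and 268, 314 and 281 CPM in WD+F+CCl4 mice. It rose there by 1.50 and 1.67 on the log2 scale, and Cyp4f16 by 1.00 and 1.01, all called, where 8.23% and 9% of genes passed. Within the dendritic-like cluster 4, Cyp4f18 was at 9.44 and 8.76 CPM, then 84.1, 38.5 and 63.9 CPM, then 82.3, 88.9 and 50.0 CPM, and rose by 2.69 and 3.01, where 4.95% and 10.1% of genes passed. Cyp4f16 was at 24.6 and 20.4 CPM there, then 80.8, 52.2 and 64.5 CPM, then 64.8, 85.9 and 57.1 CPM, and rose by 1.46 and 1.59. Cyp4f18 and Cyp4f16 were thus higher in NASH mice within clusters 0 and 4, which were examined one by one after the data were seen. Cyp4v3 was not, with changes of 0.35 and 0.08 in cluster 0 (adjusted p = 0.360 and 0.881) and 0.22 and 0.11 in cluster 4 (adjusted p = 0.758 and 0.865) by edgeR. The Cyp4f16 call was lost over all MMD clusters without control replicate 1 (adjusted p = 0.0872 in HFD+F+CCl4 and 0.0745 in WD+F+CCl4) or, in HFD+F+CCl4, without control replicate 2 (0.0508). In the plasmacytoid dendritic-like cluster, with 389 and 260 control barcodes, the groups overlapped for both genes and no fit was made. Cyp4f18 was at 25.4 and 46.5 CPM there, then 103, 67.2 and 56.0 CPM, then 83.2, 112 and 40.4 CPM. Cyp4f16 was at 15.6 and 31.8 CPM, then 29.4, 39.6 and 28.7 CPM, then 32.9, 44.6 and 22.9 CPM. Free myeloid RNA was not estimated, and its part in the rises within the dendritic-like cluster 4 was not tested.

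**Figure D4:**
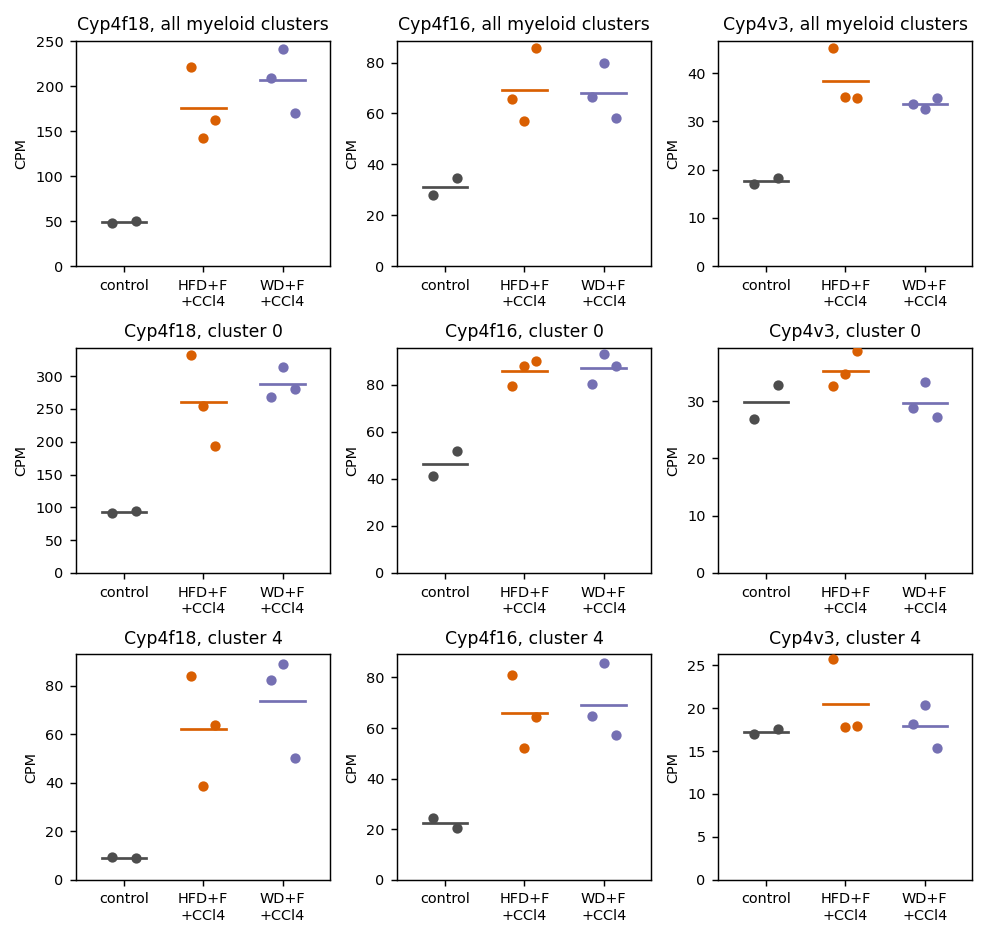
Level in CPM (vertical axes, linear from 0) of Cyp4f18, Cyp4f16 and Cyp4v3 (columns) by group (horizontal axes) in all MMD clusters, in cluster 0 and in cluster 4 (lines of panels). Points are mice and lines are group means; Cyp4f18 and Cyp4f16 stay apart from the control mice in each line of panels, and Cyp4v3 does so over all clusters but overlaps in cluster 0.

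Elsewhere in the blood-borne cells the family 4 members differed in place. Granulocyte-like barcodes held the most Cyp4f18 of the named classes, at 444 and 148 CPM in control, 400, 318 and 234 CPM in HFD+F+CCl4 and 275, 270 and 255 CPM in WD+F+CCl4 mice. The groups overlapped there, control replicate 2 resting on 5 UMIs. B-like barcodes held Cyp4f18 at 72.8 and 72.3 CPM, then 149, 89.0 and 21.9 CPM, then 145, 101 and 97.3 CPM. Kupffer-like barcodes were led by Cyp4v3, at a mean of 66.2 CPM over 7 mice, ahead of Cyp4f18 at 50.0 and Cyp4f16 at 35.1 CPM. Plasmacytoid dendritic-like barcodes held Cyp4f18 at a mean of 66.8 CPM and Cyp4f16 at 30.7 CPM, NK-like barcodes Cyp4f16 at 42.3 and Cyp4f18 at 40.1 CPM, and erythroid-like barcodes Cyp4f18 at 119 and Cyp4f16 at 33.8 CPM. Members were given as leading a class only where they had 20 or more UMIs and a median over mice of at least 3 times what free hepatocyte RNA would give. Of the members with 20 or more UMIs this held for 12 of 38 in the MMD clusters, 6 of 15 in granulocyte-like, 10 of 35 in T-like, 5 of 28 in B-like and 13 of 29 in endothelial-like barcodes. Cyp4b1 passed in several of these classes too, and its sum over mice there was 0.409 to 1.32 times what free endothelial RNA would give.

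The members typical of hepatocytes fell in the same MMD clusters. In all, 36 members were tested. In HFD+F+CCl4 against control 17 passed, 3 higher and 14 lower, where 17.5% of 17225 genes passed (9.39% higher and 8.12% lower). In WD+F+CCl4 26 passed, 3 higher and 23 lower, where 22% of genes passed (11.7% higher and 10.3% lower). The median member change was -2.63 and -4.35 on the log2 scale, against 0.08 and 0.06 over all genes. Cyp2e1 was at 34.5 and 60.9 CPM in the control mice, 4.60, 3.98 and 1.06 CPM under HFD+F+CCl4 and 1.30, 0.97 and 2.05 CPM under WD+F+CCl4. Every NASH mouse lay below both control mice, and Cyp2e1 fell by 3.69 (adjusted p = 0.00339) and 4.77 (adjusted p = 0.00144) by edgeR. Cyp3a11, at 42.3 and 51.8 CPM in control and at most 4.89 CPM in any NASH mouse, fell by 4.17 and 5.27.

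The other members lower in both models were, with their log2 changes first for HFD+F+CCl4 and then for WD+F+CCl4, Cyp2c29 (-5.27 and -7.31), Cyp2c54 (-5.49 and -7.15), Cyp2c50 (-5.02 and -5.73), Cyp2c67 (-4.93 and -5.37), Cyp2c70 (-2.60 and -4.14), Cyp2d10 (-3.74 and -5.66), Cyp2d26 (-2.66 and -5.13), Cyp2f2 (-2.96 and -6.68), Cyp2j5 (-2.97 and -4.60), Cyp2u1 (-3.10 and -3.99), Cyp3a25 (-4.77 and -6.90) and Cyp4a10 (-3.54 and -6.39). Of these, Cyp2u1 alone lay above the free hepatocyte RNA level in the MMD clusters, at a median ratio of 4.78 on 114 UMIs. It is therefore not counted as typical of hepatocytes. Called lower in WD+F+CCl4 mice alone, a difference that was not tested, were Cyp2c23, Cyp2c68, Cyp2d9, Cyp2d22, Cyp2a12, Cyp1a2, Cyp3a13, Cyp4a14 and Cyp4f14, by 2.45 to 6.51. The 18 secreted hepatocyte genes moved the same way, 8 lower and 1 higher in HFD+F+CCl4 and 15 lower and 1 higher in WD+F+CCl4 mice. Their share of MMD UMIs was 0.258% and 0.231% in the control mice and 0.0937% to 0.183% in the NASH mice, and the hepatocyte marker list stood at 1272 and 1147 CPM against 30.8 to 532 CPM. How much of the fall in P450 UMIs follows from this was not tested. Por, the electron donor of the microsomal P450s, went the other way and rose by 1.72 and 2.36 in the MMD clusters. Of 34 enzymes of conjugation and hydrolysis tested there, 13 fell and 1 rose in HFD+F+CCl4 mice and 17 fell and 2 rose in WD+F+CCl4 mice.

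Hepatocyte members were lower in T-, NK- and B-like barcodes too. Of 31 members tested, 10 were lower and 0 higher in HFD+F+CCl4 mice, where 6.19% of 13863 genes passed and 2.09% were lower and 4.1% higher. They were Cyp2c29, Cyp2c50, Cyp2c54, Cyp2c67, Cyp2c70, Cyp2d26, Cyp2e1, Cyp2f2, Cyp2j5 and Cyp3a25, by 2.76 to 6.22 on the log2 scale. In WD+F+CCl4 mice 20 of 31 passed, 19 of them lower, where 11.9% of genes passed and 5.42% were lower and 6.46% higher. Those 10 were again among them, with Cyp1a2, Cyp2a12, Cyp2d9, Cyp2d10, Cyp2d22, Cyp3a11, Cyp4a10, Cyp4a14 and Cyp4f14, by 2.57 to 8.19. The median member change was -2.87 and -5.15, against -0.01 and -0.01 over all genes. Secreted hepatocyte genes moved the same way, 4 lower and 1 higher in HFD+F+CCl4 and 15 lower and 1 higher in WD+F+CCl4 mice. They made up 0.289% and 0.320% of the lymphocyte UMIs in the control mice against 0.0356% to 0.149% in the NASH mice, and the 8 hepatocyte markers stood at 1537 and 1675 CPM against 30.4 to 785 CPM. In the 5 mice with an estimate, these barcodes held 1288 Cyp3a11 UMIs where free hepatocyte RNA would give 1157, 512 of Cyp2f2 where it would give 713 and 1097 of Cyp2e1 where it would give 643. By this estimate these members lay near or below the free RNA level, with Cyp2e1 at 1.70 times it. The estimate counts Hp, also a leading gene of a monocyte/macrophage-like cluster, so it does not rest on hepatocyte RNA alone. It came from Alb-rich barcodes. Of those in control replicate 1, 56 lay in the B-like cluster and 18 in a T-like cluster. The estimate is therefore not independent of lymphocyte-like barcodes, and the origin of this RNA was not tested.

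Cyp2e1 was at 40.1 and 88.9 CPM in these lymphocyte barcodes of the control mice, 6.99, 5.79 and 1.34 CPM under HFD+F+CCl4 and 1.2, 0.55 and 1.72 CPM under WD+F+CCl4. The groups did not overlap, and Cyp2e1 fell by 3.79 (adjusted p = 0.00809) and 5.55 (adjusted p = 0.00254) by edgeR, a call kept in every alternative run for it. Per 1000 secreted hepatocyte UMIs in the same barcodes Cyp2e1 was at 13.9 and 27.8, then 4.68, 4.21 and 3.34, then 3.37, 1.34 and 3.23. Its ratio to these genes thus also lay lower in every NASH mouse. The genes include Hp, which was also a leading gene of a monocyte/macrophage-like cluster, so they do not count hepatocyte RNA alone. The part of myeloid Hp in the lower ratio was not tested. In barcodes with 500 genes or fewer the ratio was 7.93 and 28.1 in the control mice, 4.99, 4.91 and 2.42 under HFD+F+CCl4 and 4.27, 2.52 and 12.0 under WD+F+CCl4, and there WD+F+CCl4 replicate 3 lay above control replicate 1.

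The single member higher in lymphocyte barcodes of WD+F+CCl4 mice was Cyp4f18, at 27.7 and 33.0 CPM in control, 61.9, 40.1 and 42.4 CPM in HFD+F+CCl4 and 93.2, 79.1 and 48.2 CPM in WD+F+CCl4 mice. All NASH mice lay above the control mice, and it rose by 1.47 (SE 0.30, adjusted p = 0.0185, edgeR) in WD+F+CCl4. The call was lost with doublets left out (0.78, adjusted p = 0.241), at a higher clustering resolution (0.55, adjusted p = 0.247), and when control replicate 1 (adjusted p = 0.115), control replicate 2 (0.0816) or WD+F+CCl4 replicate 2 (0.0591) was removed, all by edgeR. The lymphocyte barcodes were not the same mixture in all mice. The T-like cluster 6 held 3528 and 681 control barcodes against 7 to 40 per NASH mouse, and the T-like cluster 5 held 195 and 66 against 442 to 1431. B-like barcodes held 93.5 CPM of Cyp4f18 on average over mice, against 34.8 CPM in T-like barcodes. The part of this mixture and of free myeloid RNA in the rise was not tested.

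Endothelial-like barcodes had members of their own. Cyp4b1 was the most abundant, on 7896 UMIs, at 334 and 590 CPM in the control mice, 511, 256 and 119 CPM under HFD+F+CCl4 and 364, 62.0 and 543 CPM under WD+F+CCl4. The groups overlapped widely, with changes of -0.52 and -0.40 (adjusted p = 0.852 and 0.921, edgeR). Cyp1b1, which oxidises oestrogens, retinoids and polycyclic hydrocarbons outside the hepatocyte, was at 21.7 and 0 CPM, then 47.6, 204 and 285 CPM, then 930, 416 and 19.2 CPM. All NASH mice except WD+F+CCl4 replicate 3 lay above both control mice. The changes of 3.23 and 3.33 did not pass (adjusted p = 0.341 and 0.396, edgeR), and with no filter on low counts the first had adjusted p = 1.21e-09 by the same test. WD+F+CCl4 replicate 1 gave only 9 endothelial-like barcodes and did not enter the fit. Cyp2d22 was at 116 and 71.6 CPM, then 46.6, 29.8 and 51.0 CPM, then 40.4, 18.6 and 52.8 CPM, with both control mice highest. Cyp1a1, the classical target of the Ah receptor, had 202 UMIs, at 16.8 and 0 CPM, then 6.21, 61.8 and 0 CPM, then 0, 0 and 11.8 CPM, and overlapped.

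Of 20 members tested in endothelial-like barcodes, 3 were lower and 0 higher in HFD+F+CCl4 mice, where 1.79% of 10736 genes passed and 1.16% were lower and 0.624% higher. These were Cyp2c29 (-5.96, adjusted p = 0.00923), Cyp2e1 (-3.51, adjusted p = 0.0182) and Cyp3a11 (-3.59, adjusted p = 0.0248) by edgeR. In WD+F+CCl4 mice 2 were lower, Cyp2c29 (-5.33, adjusted p = 0.0249) and Cyp2e1 (-4.59, adjusted p = 0.0223, edgeR), where 1.31% of genes passed and 0.95% were lower and 0.363% higher. The median member change was -2.25 and -3.40, against 0.04 and 0.03 over all genes. Cyp2e1 was at 74.9 and 134 CPM in control, 7.38, 12.8 and 0 CPM in HFD+F+CCl4 and 0, 0 and 4.05 CPM in WD+F+CCl4 mice, without overlap. Secreted hepatocyte genes made up 0.456% and 0.496% of the endothelial UMIs in the control mice against 0.0162% to 0.203% in the NASH mice, and their part was not tested. By edgeR the Cyp2e1 call in HFD+F+CCl4 rested on each control mouse (adjusted p = 0.254 with replicate 1 removed and 0.117 with replicate 2 removed) and on HFD+F+CCl4 replicate 1 (0.0694). The call in WD+F+CCl4 rested on the same control mice (adjusted p = 0.213 and 0.118, edgeR) and on WD+F+CCl4 replicate 3 (0.133).

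**Figure D5:**
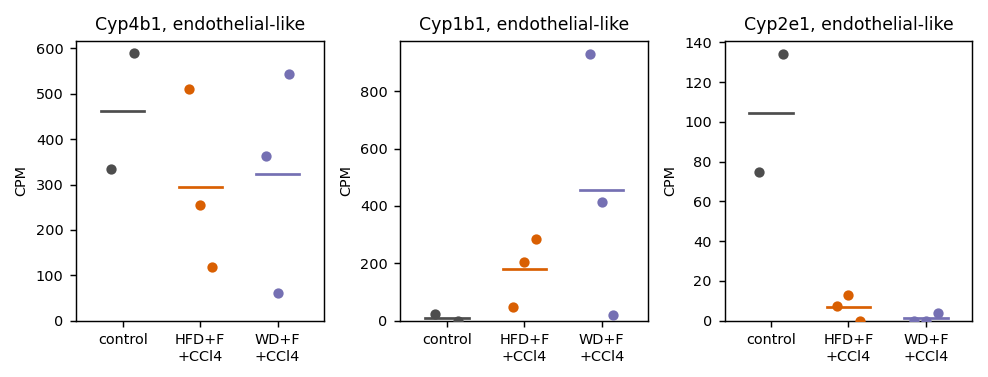
Level in CPM (vertical axes, linear from 0) of Cyp4b1, Cyp1b1 and Cyp2e1 by group (horizontal axes) in endothelial-like barcodes. Points are mice and lines are group means. Cyp4b1 overlaps between groups, Cyp1b1 spans 19.2 to 930 CPM under WD+F+CCl4, and Cyp2e1 is lower in all 6 NASH mice.

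In the small stellate/fibroblast-like cluster of 248 barcodes Cyp2e1 and Cyp1b1 were the leading members. The cluster held 17 and 1 barcodes of the control mice, 158, 39 and 11 under HFD+F+CCl4 and 3, 4 and 15 under WD+F+CCl4. Cyp2e1 was at 273 and 0 CPM in the control mice, 407, 39.0 and 0 CPM under HFD+F+CCl4 and 0, 18.9 and 11.4 CPM under WD+F+CCl4, with 476 of its 506 UMIs from HFD+F+CCl4 replicate 1. Cyp1b1 was at 14.4 and 0 CPM, then 104, 320 and 53.7 CPM, then 33.4, 18.9 and 0 CPM. It was highest under HFD+F+CCl4, against few control and WD+F+CCl4 barcodes. Cyp2d22 came next, at a mean of 40.8 CPM. In cholangiocyte-like barcodes Cyp2j6 was at 89.1 and 54.6 CPM, then 96.8, 83.2 and 81.8 CPM, then 116, 53.4 and 99.8 CPM, with overlap. The 54.6 and the 116 rest on 2 UMIs each. By the mean over the 8 mice Cyp2d22 followed at 82.5 CPM and Cyp4f14, a leukotriene hydroxylase, at 51.3 CPM. With the UMIs of the mice pooled Cyp2d22 led instead, at 95.2 CPM on 584 UMIs against 87.0 CPM on 534 UMIs for Cyp2j6. Levels in these clusters were not tested.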

How the data were processed

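UMI counts, whole numbers per gene and barcode, were deposited by the authors as 1 matrix of 55450 genes for 8 libraries (10x Genomics 3' kit, bcl2fastq 2.20 and Cell Ranger on GRCm38), with no filter for cell quality. The sources used here do not say whether doublets or free RNA were removed. A 3' UMI is not scaled by transcript length.

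Only barcodes above 500 genes and below 25% of mitochondrial UMIs were used. They were clustered with scanpy 1.11.5 (2000 variable genes without 138 P450 genes, 30 principal components, 20 neighbours, Leiden resolution 0.42, leidenalg 0.10.2, 21 clusters). A cluster was named X-like from marker lists where at least 3 markers were detected in a share of 0.1 of its barcodes with a mean z-score of 0.5 and a lead of 0.2 over the next list. Doublets were kept, and left out in an alternative (6824 by Scrublet rank, 0.8% per 1000 barcodes).

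UMIs were summed per mouse and cell class, and compared with edgeR 4.0.16 (TMM, filterByExpr with a minimum of 10, quasi-likelihood test, 1 fit of all mice that entered, Benjamini-Hochberg adjustment over all genes tested, calls at adjusted p under 0.05) in R 4.3.3 with limma 3.58.1. A mouse entered with 10 or more Alb-rich barcodes or 20 barcodes of another class. DESeq2 1.42.0, other normalization and filters, a replicate block and each mouse left out were alternatives. The fits were tested on simulated data. Shares were compared with exact permutation tests (SciPy 1.17.1). Free RNA was estimated per mouse from the members' ratio to 18 secreted hepatocyte genes in the Alb-rich barcodes of 5 mice. These genes include Hp, also a leading gene of a monocyte/macrophage-like cluster, so the estimate does not rest on hepatocyte RNA alone. Each library is 1 mouse, so the spread is between mice.

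The members and gene lists were chosen with earlier results of these data known. Named were the 20 members of highest mean level in Alb-rich barcodes, members called in a comparison, Cyp2e1 and family 1, and in each other class up to 3 leading members above free RNA. Members called lower outside hepatocytes are given by their log2 changes or range.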

Additional observations from a re-analysis of the deposited data

How the results depend on the processing

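With 2 control mice, 1 of them shallow, and few hepatocytes in the NASH mice, counts of called members moved with the processing more than directions did. Of the members called in a comparison, 17 of 17 (HFD+F+CCl4) and 26 of 26 (WD+F+CCl4) in MMD clusters, 10 of 10 and 20 of 20 in T, NK and B cells, 3 of 3 and 2 of 2 in endothelial cells and 2 of 3 and 2 of 2 in Alb-rich barcodes kept their direction in every alternative, and 2, 10, 1, 13, 0, 0, 0 and 0 of them stayed past the threshold. The exception in direction was Cyp4b1 in Alb-rich barcodes of HFD+F+CCl4 mice, at 0.57 in the hepatocyte-like cluster. The cause of these moves was not tested.

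In Alb-rich barcodes the count in HFD+F+CCl4 mice went from 3 to 1 with DESeq2, 1 with more than 1000 genes per barcode, 10 with Alb at 0.5% and 1 with Alb at 2%, and to between 0 and 2 with a mouse left out (0 without HFD+F+CCl4 replicate 2). In WD+F+CCl4 it went from 2 to 1 with DESeq2, 10 with Alb at 0.5%, 6 with Alb at 2%, 9 in the hepatocyte-like cluster and between 0 and 4 with a mouse left out. Between the models it went from 0 to 1 with no filter, with more than 1000 genes, with Alb at 2% and at most 1 with a mouse left out (0 to 1). With Alb at 0.5%, 28.1% of all genes passed in WD+F+CCl4 mice. Cyp2j6 was called higher there in both models (1.76 and 1.66, adjusted p = 0.00977 and 0.0209, edgeR). Cyp4f14 was called higher in HFD+F+CCl4 mice (1.51, adjusted p = 0.0132, edgeR), and the other members called there were lower. Counts in this section given without a share of all genes are not read as results about the members. Only control replicate 1 had enough Alb-rich barcodes free of immune and endothelial markers, so that alternative was not run.

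In MMD clusters the count went from 17 to 9 in cluster 0 and 9 in cluster 4 in HFD+F+CCl4 mice, and from 26 to 14 and 14 in WD+F+CCl4 (both chosen after seeing the data), and to between 5 (without control replicate 2, 7 without control replicate 1) and 18, and between 15 (without control replicate 1) and 27, with a mouse left out. In T, NK and B cells it went from 10 to 27 with no filter and 5 with doublets left out, and from 20 to 31 with no filter, with 1 to 12 and 13 to 22 over mice left out (in HFD+F+CCl4 2 without control replicate 1, 1 without control replicate 2 and 3 without HFD+F+CCl4 replicate 3, in WD+F+CCl4 13 without control replicate 1). In endothelial cells it went from 3 to 10 with no filter and 5 with DESeq2, and from 2 to 11 with no filter, 8 with DESeq2, 1 with more than 1000 genes, 1 with doublets left out and 4 at a higher resolution, with 0 to 3 and 0 to 6 over mice left out, and 0 without either control mouse in both models.

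The share of Alb-rich barcodes differed by -4.09 to -0.979 percentage points with a mouse left out (exact permutation p = 0.143 without either control mouse, the smallest that 7 splits can give), and by 1.13 in the other direction as the hepatocyte-like cluster.

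The replicate numbers did not pair the mice, since same-numbered mice of different groups deviated together at correlations of -0.437 to 0.0458 in MMD clusters and -0.162 to 0.0400 in T, NK and B cells, with 0 of 7 pairs above 0.1. With the numbers as a replicate block the counts were 5 in Alb-rich barcodes of HFD+F+CCl4 mice, 9 and 16 in MMD clusters, 4 and 16 in T, NK and B cells and 2 and 0 in endothelial cells.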
